A study of Mus musculus with 32 samples.

Results

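Cxcl9, Cxcl10 and Cxcr3 form a chemokine and receptor set that was followed here through the response of the mouse mesentery to pristane. The members were taken by symbol: they are the probe sets annotated to these 3 gene symbols, 4 probe sets of 45101 on the array and 3 genes of 18193. Cxcl10 and Cxcr3 have 1 probe set each (1418930_at and 1449925_at) and Cxcl9 has 2 (1418652_at and 1456907_at). One of the 4, 1456907_at, was above 103.7, the median of all values on all arrays, on only 2 of 32 arrays, and did not pass the filter on dim probe sets. The other 3 passed and stand for the genes below.

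The chemokines CXCL9 and CXCL10 are small secreted proteins that draw activated T cells and NK cells into inflamed tissue through their shared receptor CXCR3; CXCL11 is the third ligand of that receptor. Interferon-gamma is the classical inducer of Cxcl9, whereas Cxcl10 also responds to type I interferon and to NF-kB signals. Pristane (TMPD) is a hydrocarbon oil that causes chronic inflammation when it is placed in the peritoneal cavity, and in mice it is known for a strong type I interferon response.

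RNA from mesentery, the sheet of fat, vessels and lymphoid tissue that holds the gut, was hybridised to 32 Mouse Genome 430 2.0 arrays. Treated mice were given 0.5 ml of pristane intraperitoneally. The groups were BALB/c on day 3 (3 arrays) and day 18 (4), DBA on day 3 (3) and day 18 (3), the F1 of these strains on day 3 (3), with 7 BALB/c, 6 DBA and 3 F1 arrays of untreated mice. The labels name no transgene, deletion or shared treatment of the controls, and give no age, sex or DBA substrain. Title codes fall into 3 runs, day 3 of all strains, day 18 of BALB/c and day 18 of DBA, and every treated group has untreated arrays of its strain in its own run: 3 for each strain at day 3, 4 for BALB/c and 3 for DBA at day 18. A response is treated minus control within such a run, on a log2(signal + 24.9) scale, with 24.9, the 25th percentile over the whole data set, as offset. Whether each array is another mouse is not stated, so the p-values rest on array-to-array spread that may be technical. A gene was called, and is said to have risen or fallen, at an adjusted p under 0.05 (limma, two-sided, Benjamini-Hochberg over 13016 genes). Errors of log2 changes are standard errors.

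Array median signals ran from 90.6 to 135.3. BALB/c control replicate 2, a control of the BALB/c day 18 run, stood apart and correlated with no other array above 0.862. Xist, the transcript of the silenced X chromosome of female cells, reached a high level on 21 arrays and a low level on 11. All treated F1 arrays were high and all F1 controls low, so sex and treatment cannot be told apart in the F1 response, while each parental treated group had as many Xist-high arrays as its controls. Actin probe sets give a 3'/5' ratio that grows with RNA degradation, and it was 2.10 to 2.44 (group means) in the day 3 controls and 1.56 to 1.92 in the treated groups of that run. Its part in the results was not tested.

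The promoters of the 3 genes are shown because the ligands are textbook targets of interferon and NF-kB factors and their changes differed between strains. Each runs from 250 bases before to 50 after the start of the gene, read on the strand of the gene from RefSeq (GRCm38.p6). They lie at chr5:92328030-92328329 (Cxcl9), chr5:92348840-92349139 (Cxcl10) and chrX:101734098-101734397 (Cxcr3), all on the minus strand. Cxcl9 and Cxcl10 are neighbours on chromosome 5, at 92321331 to 92328079 and 92346638 to 92348889, with Cxcl11 next at 92359544 to 92363296. Capitals mark motif matches.
Cxcl9: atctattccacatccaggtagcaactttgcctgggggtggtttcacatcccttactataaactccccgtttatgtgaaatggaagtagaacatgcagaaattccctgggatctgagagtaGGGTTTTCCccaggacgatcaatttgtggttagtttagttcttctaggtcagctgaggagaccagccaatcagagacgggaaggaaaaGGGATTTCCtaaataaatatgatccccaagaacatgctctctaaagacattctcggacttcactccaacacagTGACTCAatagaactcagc
Cxcl10: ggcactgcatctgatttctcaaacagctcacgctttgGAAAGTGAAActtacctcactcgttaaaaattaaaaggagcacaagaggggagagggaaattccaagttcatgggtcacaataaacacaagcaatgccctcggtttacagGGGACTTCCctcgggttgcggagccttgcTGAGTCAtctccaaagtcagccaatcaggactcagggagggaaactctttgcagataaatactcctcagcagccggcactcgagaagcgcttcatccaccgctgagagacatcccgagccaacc
Cxcr3: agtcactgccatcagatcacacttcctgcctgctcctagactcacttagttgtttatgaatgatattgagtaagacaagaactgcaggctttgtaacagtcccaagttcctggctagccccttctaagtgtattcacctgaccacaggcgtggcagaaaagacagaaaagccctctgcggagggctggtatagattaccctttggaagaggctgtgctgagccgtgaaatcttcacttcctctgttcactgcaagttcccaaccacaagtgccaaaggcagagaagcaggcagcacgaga
Both strands were searched for 4 motifs. The interferon-stimulated response element (ISRE, taken as GAAA, any 2 bases, GAAA) is held by 3.44% of 32851 promoters of this length, the gamma-activated site (GAS, TTCNNNGAA) by 8.30%, the NF-kB site (GGGNNTTCC) by 5.82% and the AP-1 site (TGANTCA) by 7.81%. The Cxcl10 window holds 1 ISRE match from 213 to 204 bases before the start, 1 NF-kB match from 103 to 95 before it and 1 AP-1 match from 74 to 68 before it. In the Cxcl9 window there are 2 NF-kB matches, from 130 to 122 and from 42 to 34 bases before the start, and 1 AP-1 match 32 to 38 bases after it. Neither ligand window holds a match to the GAS letters, and the Cxcr3 window holds none to any of the 4. No matches overlapped. A match describes these letters only. Other spellings of these sites, longer NF-kB forms among them, were not searched, so the counts of matches are not counts of sites.

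After pristane Cxcr3 rose in all 5 responses and Cxcl10 in 4 of them, whereas Cxcl9 rose in the F1 and fell in DBA at day 3. At day 3 in BALB/c 2 of 3 members were called, Cxcl10 and Cxcr3, both higher, where 35.5% of all tested genes were called and 18.3% were called higher. In the F1 all 3 rose, among 36.5% of genes called and 18.6% called higher. In DBA at day 3 Cxcr3 rose and Cxcl9 fell, among 29.8% of genes called, 16.4% higher and 13.4% lower. At day 18 Cxcl10 and Cxcr3 rose in BALB/c (43.9% of genes called, 21.7% higher) and in DBA (47.4% called, 22.4% higher). Shares this large mean that a call on its own does not set a gene apart, and the sizes below carry the description.

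**Figure D1:**
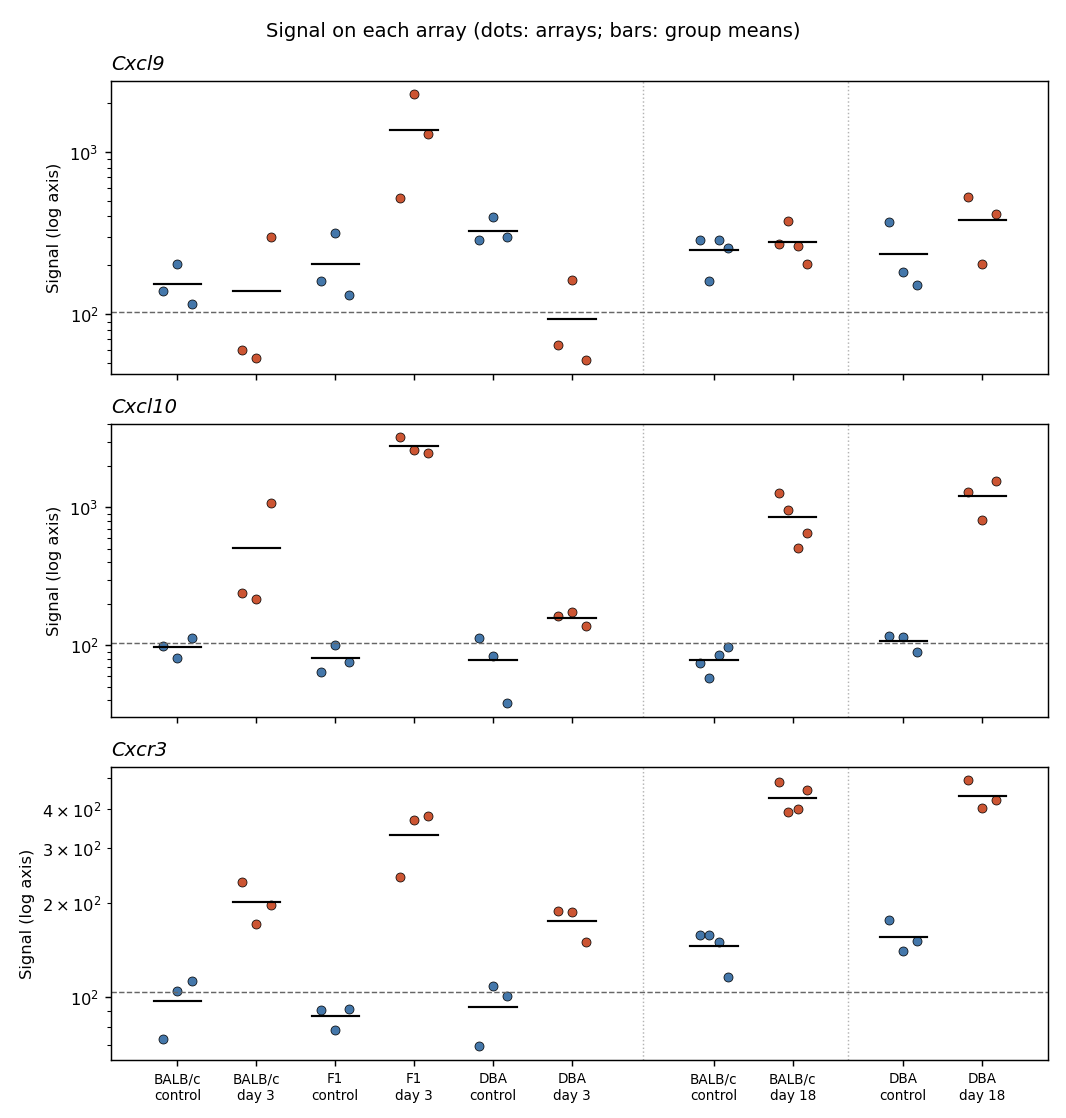
Signal of the probe set of each gene on each of the 32 arrays (log axis, arbitrary units), controls in blue and treated arrays in red, bars at the mean signal of a group, dashed line at 103.7, dotted lines between title code runs. Cxcl10 on treated F1 arrays lies between 2482.7 and 3221.2, above every other array. Cxcl9 on treated DBA arrays of day 3 lies below all its controls (as for 24.4% of genes).

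Cxcl10, the ligand that answers both interferon types, showed the widest range. In the day 3 run the BALB/c controls read 99.6, 80.9 and 113.4 and the treated arrays 239.0, 217.8 and 1077.2. The F1 controls read 64.7, 100.7 and 75.9 and the treated arrays 3221.2, 2628.4 and 2482.7. The DBA controls read 112.8, 83.5 and 38.0 and the treated arrays 164.3, 173.9 and 137.7. Every treated array stood above every control of its strain in all 3 strains, with 26.6%, 25.5% and 27.3% of genes doing so in BALB/c, F1 and DBA. Treated F1 arrays lay close together and far above both parents, and 1 BALB/c array (replicate 3) lay well above the other two. The change was 4.74 ± 0.39 in F1 (26.7-fold, adjusted p = 4.97e-10 by limma, 3 against 3 arrays) and ranked 14 of 13016 genes from the top. It was 1.76 ± 0.39 in BALB/c (3.38-fold, adjusted p = 0.000827 by limma) and fell to 1.05 (adjusted p = 0.0115) without BALB/c day 3 replicate 3. In DBA it was 0.90 ± 0.39 (adjusted p = 0.0825 by limma), not past the threshold, although a floor in place of the offset (1.15, adjusted p = 0.0453), an offset of 1 (1.14, adjusted p = 0.0472), array weights (1.04, adjusted p = 0.011), a fit of only the arrays compared (0.90, adjusted p = 0.0284) and a fit without BALB/c day 3 replicate 3 (0.90, adjusted p = 0.0156) called it. Without DBA control replicate 6, the control at 38.0, it was 0.58 (adjusted p = 0.346 by limma).

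At day 18 Cxcl10 was high in both parent strains. BALB/c controls of its day 18 run read 74.3, 58.5, 85.5 and 98.0 and treated arrays 1270.8, 962.1, 509.2 and 656.9. DBA controls read 117.7, 114.3 and 89.5 and treated arrays 1286.0, 809.4 and 1548.2. The groups did not overlap in either strain, as for 17.9% of genes in BALB/c and 28.6% in DBA. Cxcl10 rose by 3.00 ± 0.34 in BALB/c (8.03-fold, adjusted p = 6.09e-08 by limma, 4 against 4) and by 3.19 ± 0.39 in DBA (9.12-fold, adjusted p = 2.33e-07, 3 against 3), a difference of -0.18 ± 0.51 (95% interval -1.24 to 0.87, adjusted p = 0.876, 0.983% of genes called). Each strain has a day 18 run of its own, so strain and run cannot be told apart in such a difference, although each response is taken against controls of its run. Within arrays of 1 Xist class the rise was 3.64 (high) and 2.37 (low) in BALB/c and 3.78 and 2.89 in DBA (2 arrays against 2, but 1 against 1 for the DBA high class). The DBA response was larger at day 18 than at day 3 by 2.29 ± 0.55 (adjusted p = 0.0168 by limma, 4.19% of genes called), but not past the threshold when replicate 3 of DBA day 18 (2.09, adjusted p = 0.0614) or of DBA day 3 (2.20, adjusted p = 0.0511) was left out. In BALB/c the same difference was 1.25 ± 0.51 (adjusted p = 0.321, 0.361% of genes called), and 1.95 (adjusted p = 0.0218) without BALB/c day 3 replicate 3. The day 3 and day 18 arrays lie in different runs, each with its own controls.

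Cxcl9, the ligand most tied to interferon-gamma, moved in different directions between strains. In the day 3 run the BALB/c controls read 138.6, 204.7 and 116.1 and the treated arrays 59.9, 53.6 and 300.3. The F1 controls read 159.1, 316.8 and 131.9 and the treated arrays 519.7, 2261.3 and 1280.7. The DBA controls read 284.2, 394.8 and 298.6 and the treated arrays 64.6, 161.8 and 51.8. Treated F1 arrays were all above their controls (as for 25.5% of genes) and treated DBA arrays all below theirs (as for 24.4%). The BALB/c groups overlapped, with 2 treated arrays below and 1 above all controls. Cxcl9 rose by 2.46 ± 0.49 in F1 (5.48-fold, adjusted p = 0.000323 by limma) and fell by 1.68 ± 0.49 in DBA (3.20-fold lower, adjusted p = 0.0111), and its BALB/c change was -0.43 ± 0.49 (95% interval -1.44 to 0.58, adjusted p = 0.545). Without DBA day 3 replicate 1 or replicate 3 the DBA change was -1.54 (adjusted p = 0.053) or -1.43 (adjusted p = 0.0566) and no longer passed. In the DBA response 0.261% of genes had a lower log2 change than Cxcl9.

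At day 18 the Cxcl9 groups overlapped in both strains. BALB/c controls read 284.7, 160.7, 285.5 and 257.0 and treated arrays 269.1, 374.6, 263.4 and 202.2. DBA controls read 369.2, 182.7 and 151.6 and treated arrays 524.7, 202.2 and 412.7. The changes were 0.15 ± 0.43 in BALB/c (95% interval -0.72 to 1.03, adjusted p = 0.803 by limma) and 0.64 ± 0.49 in DBA (-0.37 to 1.65, adjusted p = 0.301). The DBA day 18 response exceeded that of day 3 by 2.32 ± 0.70 (adjusted p = 0.0554), just short of the threshold. The second Cxcl9 probe set, 1456907_at, passed 103.7 on 2 treated F1 arrays alone: those arrays read 44.9, 155.5 and 150.5 against 18.6, 23.7 and 36.0 on F1 controls. On DBA arrays of day 3 it read 29.8 to 32.4 untreated and 21.0 to 40.5 treated, so it is too dim to show a fall or its absence, and the DBA values above come from 1418652_at alone.

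Cxcr3, the receptor carried by activated T cells and NK cells, rose in all 5 responses with little spread between arrays. In the day 3 run the BALB/c controls read 73.2, 104.8 and 112.3 and the treated arrays 233.4, 171.6 and 197.5. The F1 controls read 91.1, 78.2 and 91.5 and the treated arrays 241.7, 368.5 and 379.6. The DBA controls read 69.5, 108.2 and 100.6 and the treated arrays 188.4, 186.4 and 149.8. In its day 18 run the BALB/c controls read 158.1, 158.3, 149.8 and 115.9 and the treated arrays 485.9, 389.9, 397.8 and 458.5. The DBA day 18 controls read 175.7, 140.5 and 150.8 and the treated arrays 492.5, 400.7 and 425.2. No treated array of any strain or day fell as low as a control of its run and strain. At day 3 the same held for 26.6%, 25.5% and 27.3% of genes in BALB/c, F1 and DBA. At day 18 it held for 17.9% in BALB/c and 28.6% in DBA. The day 3 changes were 0.90 ± 0.17 in BALB/c (adjusted p = 0.000213 by limma), 1.64 ± 0.17 in F1 (adjusted p = 3.58e-08) and 0.77 ± 0.17 in DBA (adjusted p = 0.00134). The DBA change was 0.46 (adjusted p = 0.0806) with controls pooled over code runs and 0.51, still called, with the offset at the median of all values. The day 18 changes were 1.43 ± 0.15 in BALB/c (2.69-fold, adjusted p = 2.15e-08) and 1.36 ± 0.17 in DBA (2.57-fold, adjusted p = 4.57e-07), with a difference of 0.07 ± 0.23 (95% interval -0.41 to 0.54, adjusted p = 0.902) in which strain and run again coincide. In bulk tissue more cells of a type and more RNA per cell cannot be told apart. Cxcr3 lies on the X chromosome (101731535 to 101734147). Within 1 Xist class it rose at day 18 by 1.33 (high) and 1.53 (low) in BALB/c and by 1.36 and 1.37 in DBA.

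**Figure D2:**
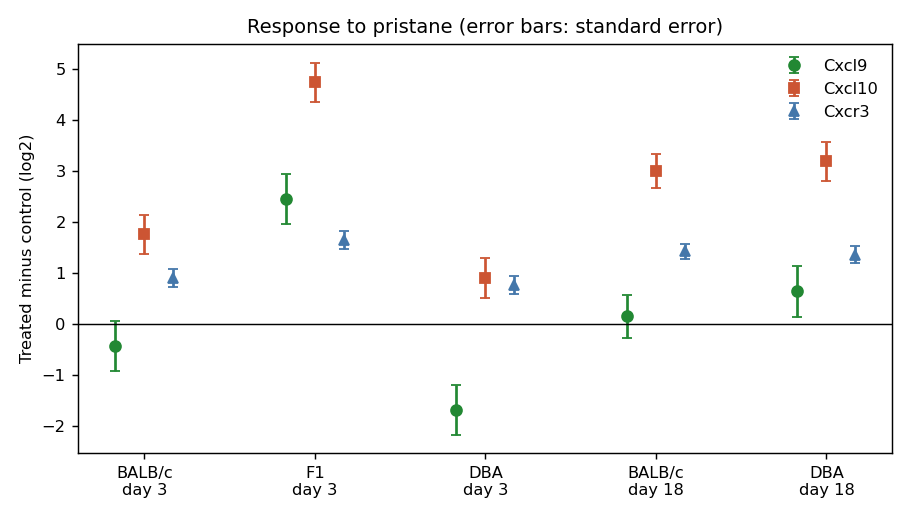
Change from control to pristane (log2, vertical axis) of Cxcl9, Cxcl10 and Cxcr3 in the 5 responses, error bars 1 standard error (3 against 3 arrays, 4 against 4 for BALB/c at day 18). Cxcl10 is highest in F1 at 4.74, Cxcl9 lies above 0 in F1 at 2.46 and below it in DBA at day 3, and Cxcr3 keeps between 0.77 and 1.64.

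Ordered by mean log2 level, the 10 groups differed by gene. For Cxcl10 the order was treated F1, then DBA and BALB/c of day 18, BALB/c of day 3 and DBA of day 3, each gap exceeding the pooled SD of the neighbours, although the arrays of day 18 DBA and BALB/c, and of day 18 and day 3 BALB/c, overlapped. The 5 control groups came last with mean signals of 78.1 to 107 and overlapping arrays. For Cxcl9 treated F1 led with a mean signal of 1354 ± 873 (SD, n = 3), and every later step was smaller than the pooled SD, down to DBA of day 3 at 92.7 ± 60.2 (SD, n = 3), the lowest mean of the 10. One treated F1 array, at 519.7, lay below the highest DBA array of day 18, at 524.7. For Cxcr3 both day 18 groups led, at 439 in DBA and 433 in BALB/c with overlapping arrays, ahead of treated F1 at 330 ± 76.6 (SD, n = 3). Next came BALB/c at 201 and DBA at 175 on day 3, whose arrays overlapped. Controls of the 2 day 18 runs (156 in DBA and 146 in BALB/c) lay above those of the day 3 run (86.9 to 96.8).

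The F1 mice carry 1 genome from each parent strain, and their response can be set against both. For Cxcl10 the F1 response exceeded that of BALB/c by 2.98 ± 0.55 (7.89-fold, adjusted p = 0.0126 by limma), where 0.223% of genes were called in this difference. It exceeded that of DBA by 3.84 ± 0.55 (14.3-fold, adjusted p = 8.59e-05, 2.02% of genes called) and the mean of both parents by 3.41 ± 0.48 (adjusted p = 0.000156, 1.54% of genes called). The difference from BALB/c did not pass with a term for Xist class (2.76, adjusted p = 0.0704), or when 1 treated BALB/c array was left out, replicate 1 (2.66, adjusted p = 0.0672) or replicate 2 (2.60, adjusted p = 0.0685). For Cxcl9 the F1 response exceeded that of DBA by 4.13 ± 0.70 (17.5-fold, adjusted p = 0.00061) and the parental mean by 3.51 ± 0.60 (adjusted p = 0.00146). Its difference from BALB/c was 2.89 ± 0.70 (95% interval 1.45 to 4.32, adjusted p = 0.0692), and 3.55 (adjusted p = 0.00922) without BALB/c day 3 replicate 3. For Cxcr3 the F1 response was larger by 0.75 ± 0.25 than in BALB/c (95% interval 0.24 to 1.25, adjusted p = 0.235), by 0.87 ± 0.25 than in DBA (0.37 to 1.37, adjusted p = 0.0654) and by 0.81 ± 0.21 than the parental mean (adjusted p = 0.0504). None of these 3 passed.

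These differences hold the F1 controls, which were low in Xist. Treated F1 and treated parental arrays of day 3 were all high in Xist and can be compared directly. Treated F1 exceeded treated BALB/c by 2.75 ± 0.39 in Cxcl10 (adjusted p = 9.97e-05 by limma), by 3.18 ± 0.49 in Cxcl9 (adjusted p = 0.000283) and by 0.64 ± 0.17 in Cxcr3 (adjusted p = 0.0422), with 2.84% of genes called. Of these the Cxcr3 call was lost in 7 alternative settings, among them median centring (0.60, adjusted p = 0.0643), and without any 1 of 7 arrays, such as F1 day 3 replicate 3 (0.53, adjusted p = 0.264). Treated F1 exceeded treated DBA by 3.93 ± 0.39 in Cxcl10 (adjusted p = 5.08e-08), by 3.44 ± 0.49 in Cxcl9 (adjusted p = 1.99e-05) and by 0.81 ± 0.17 in Cxcr3 (adjusted p = 0.00305), with 8.54% of genes called. Among untreated mice of that run the largest member difference was Cxcl9 in DBA over BALB/c, 1.00 ± 0.49 (95% interval -0.02 to 2.01, adjusted p = 0.274), with 7.66% of genes called. Untreated F1 minus untreated BALB/c was 0.30 in Cxcl9 and minus untreated DBA -0.70, neither called, against 2.65% and 1.21% of genes called. BALB/c and DBA responses at day 3 differed by 1.25 ± 0.70 in Cxcl9 (adjusted p = 0.604), 0.86 ± 0.55 in Cxcl10 (adjusted p = 0.686) and 0.12 ± 0.25 in Cxcr3 (adjusted p = 0.949), none past the threshold, where 0.499% of genes were called.

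The shares of genes called in these differences moved with single arrays, more than those of the 5 responses, which stayed within 1.5 times. Without BALB/c control replicate 2, the array that stood apart, the count went from 29 to 164 genes for the F1 minus BALB/c response, from 263 to 532 for F1 minus DBA and from 201 to 400 for F1 minus the parental mean. It went from 65 to 200 for BALB/c minus DBA at day 3, from 128 to 270 at day 18, from 47 to 111 for day 18 minus day 3 in BALB/c and from 545 to 1238 in DBA. Between treated groups it went from 370 to 789 (F1 and BALB/c) and from 1112 to 2032 (F1 and DBA). Between untreated groups it went from 997 to 1651 (DBA and BALB/c), 345 to 737 (F1 and BALB/c) and 158 to 367 (F1 and DBA). The lowest count for F1 minus BALB/c was 6, without BALB/c day 3 replicate 2, and 10 of the 32 arrays moved it by over 1.5 times. For F1 minus the parental mean it was 107 and for treated F1 minus treated DBA 540, both without F1 day 3 replicate 3. For treated F1 minus treated BALB/c it was 154, without BALB/c day 3 replicate 2. For BALB/c minus DBA it was 23 at day 3, without BALB/c day 3 replicate 1, and ran from 35 to 363 at day 18, without DBA day 18 replicate 3 or 1. For day 18 minus day 3 it was 19 in BALB/c, without BALB/c day 3 replicate 1, and 247 in DBA, without DBA day 3 replicate 3. Among untreated groups it was 631 (without BALB/c control replicate 7), 157 (without F1 control replicate 2) and 94 (without DBA control replicate 6).

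The 2 ligands were also set against each other on each array. The log2 level of Cxcl10 minus that of Cxcl9 was taken on each array; its absolute value means nothing because the probe sets differ, but its difference between groups can be read. In BALB/c at day 3 it was -0.39, -1.12 and -0.03 on controls and 1.64, 1.63 and 1.76 on treated arrays, so replicate 3, high in both genes, did not stand out. In F1 it was -1.04, -1.44 and -0.64 on controls and 2.58, 0.21 and 0.94 on treated arrays. In DBA at day 3 it was -1.17, -1.95 and -2.36 on controls and 1.08, 0.09 and 1.08 on treated arrays. The treated F1 array with the most Cxcl10, replicate 1, had the least Cxcl9. Treated minus control, the means differed by 2.19, 2.28 and 2.58 in BALB/c, F1 and DBA at day 3 and by 2.85 and 2.55 in BALB/c and DBA at day 18. Every treated array lay above every control in all 5 comparisons. Cxcl10 alone did so in all 5 as well, and 17.9% to 28.6% of single genes do so. The share of gene pairs that do so was not counted. With 3 against 3 arrays the exact two-sided permutation test cannot go below p = 0.1, which it reached each time; for 4 against 4 it gave p = 0.0286, the smallest it can give, and all 5 were 0.1 after Benjamini-Hochberg adjustment, so none passed 0.05.

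**Figure D3:**
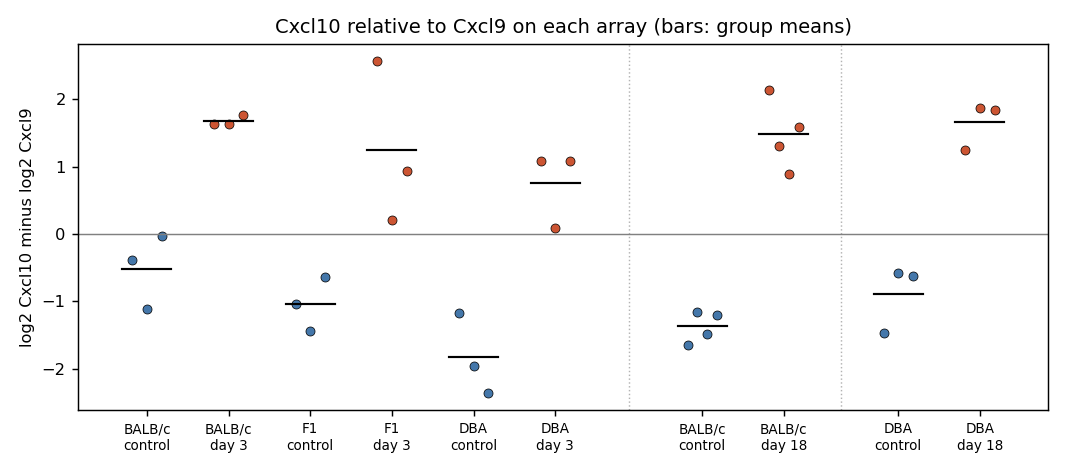
Log2 level of Cxcl10 minus log2 level of Cxcl9 on each array (dots, controls blue and treated red) with group means (bars). All treated arrays lie above all controls of their strain and run, as for Cxcl10 alone, with means that differ by 2.19 to 2.85. The height of 0 has no meaning because different probe sets are combined.

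The CXCR3 system was also read as a list that holds the members. Of 8 genes tested (3 ligands, Pf4, the receptor, the peptidase Dpp4 that trims the ligands, and the atypical chemokine receptors Ackr1 and Ackr3) 3 rose in BALB/c at day 3 (median 0.48, against -0.01 over all genes), 4 in F1 (median 0.92 against -0.04) and 3 with 1 lower in DBA (median 0.50 against 0.00). At day 18, 3 rose in BALB/c (median 0.19 against -0.03) and 3 in DBA (median 0.31 against -0.04). These counts and medians hold the 3 members described above, so they are no separate result. Of the 5 other genes, Pf4 rose in BALB/c and Pf4 and Ackr1 in DBA at day 3. Cxcl11 rose in F1 and in both strains at day 18. Over all genes, 16.4% to 18.6% were called higher in the day 3 responses and 21.7% and 22.4% at day 18. A count of 1 higher among 5 lies near these shares. Cxcl11 read 424.6, 2290.2 and 1030.5 on treated F1 arrays against 55.5, 61.1 and 19.4 on their controls, lowest and highest on the same arrays as Cxcl9. It rose by 3.94 ± 0.54 there (adjusted p = 2.25e-06 by limma) and by 2.15 ± 0.47 and 2.62 ± 0.54 at day 18 in BALB/c and DBA. At day 3 its changes of 0.66 ± 0.54 in BALB/c and 0.35 ± 0.54 in DBA did not pass (adjusted p = 0.372 and 0.682), and the BALB/c arrays read 39.0, 41.4 and 218.8, the last again replicate 3. Its F1 response exceeded that of DBA by 3.59 ± 0.76 (adjusted p = 0.00694), and exceeded that of BALB/c by 3.28 ± 0.76 without passing (adjusted p = 0.058). RefSeq lists Cxcl11 of the reference strain assembly as a transcribed pseudogene. Pf4, a platelet chemokine, rose at day 3 by 0.80 ± 0.21 in BALB/c (adjusted p = 0.00442) and 0.70 ± 0.21 in DBA (adjusted p = 0.0149), with -0.08 ± 0.21 in F1 and no called difference between F1 and either parent (adjusted p = 0.272 and 0.251). Dpp4 was not called in any response, with changes of -0.32 to 0.04. Ackr1 rose in DBA at day 3 by 0.43 ± 0.12 (adjusted p = 0.00877). In DBA the Pf4 call was lost without DBA control replicate 6 (0.60, adjusted p = 0.0698) or DBA day 3 replicate 1 (0.64, adjusted p = 0.0645), and the Ackr1 call without DBA control replicate 4 (0.28, adjusted p = 0.0977) or DBA day 3 replicate 2 (0.35, adjusted p = 0.0581).

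Most genes of the type I interferon pathway rose wherever Cxcl10 was called, and 9 of 23 did in DBA at day 3, where it was not. Of 23 tested, 20 rose in BALB/c at day 3 (median 2.07 against -0.01 over all genes), 20 in F1 (3.40 against -0.04) and 9 in DBA (0.38 against 0.00). At day 18 there were 22 in BALB/c (2.38 against -0.03) and 21 in DBA (2.86 against -0.04). Of all genes, 18.3%, 18.6% and 16.4% were called higher in BALB/c, F1 and DBA at day 3, and 21.7% and 22.4% at day 18. Irf7, the factor that amplifies type I interferon, read 2261.7, 1353.1 and 5007.5 on treated BALB/c arrays of day 3, again highest on replicate 3, and 390.4, 581.6 and 376.6 on treated DBA arrays. It rose by 2.78 ± 0.44 in BALB/c and 4.49 ± 0.44 in F1 and changed by 0.19 ± 0.44 in DBA (adjusted p = 0.79 by limma), then rose by 3.48 ± 0.38 and 4.18 ± 0.44 at day 18. The RNA sensor regulator Dhx58 rose by 2.80 and 4.40 in BALB/c and F1 and changed by 0.35 in DBA, whereas the nucleic acid sensor Zbp1 rose in all 3, by 3.35, 4.36 and 1.85. In the F1 minus DBA difference, where 2.02% of all genes were called, 19 of 23 were higher (median 2.71). Irf7 was higher by 4.30 ± 0.62 (adjusted p = 0.000104 by limma). In the F1 minus BALB/c difference 0 were called by limma, with 16 of 23 higher at an unadjusted p under 0.05 and a median of 0.97; array weights called 17 and parental controls in place of F1 controls called 12. The interferon genes Ifnb1 and Ifna4 were too dim to be tested, as was Ifng.

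**Figure D4:**
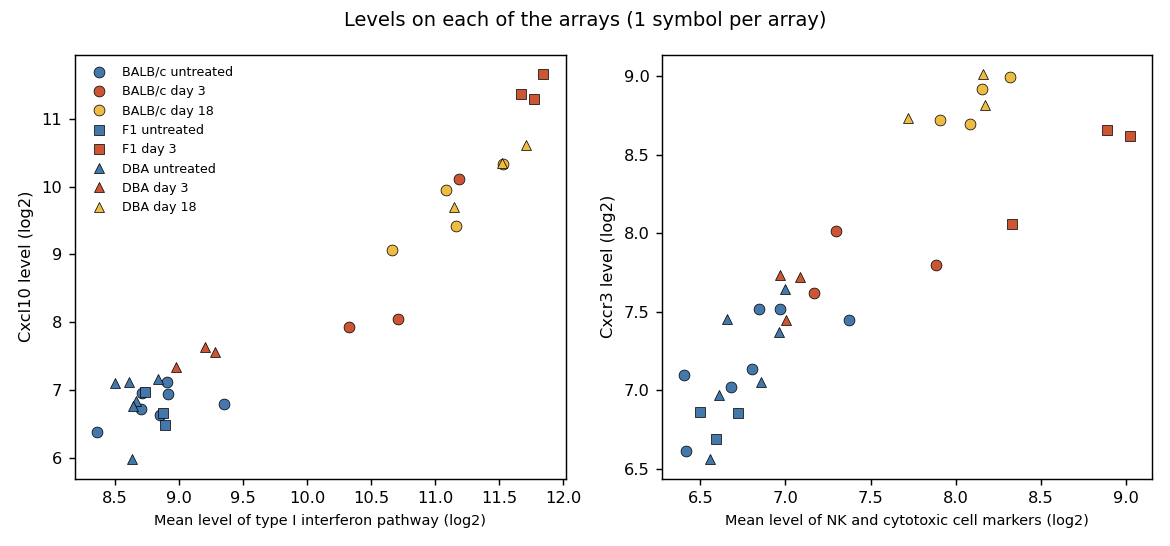
Left, log2 level of Cxcl10 on each array against the mean log2 level of 23 type I interferon pathway genes; right, log2 level of Cxcr3 against the mean of 11 NK and cytotoxic cell markers (1 symbol per array; shapes are strains, colours treatments). Treated DBA arrays of day 3 lie beside the controls on the left, between 8.98 and 9.28, while on the right treated F1 arrays reach the highest marker levels, 8.33 to 9.03, but not the highest Cxcr3.

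Of the 15 interferon-gamma pathway genes tested, 10 rose in BALB/c at day 3 (median 0.77) and 11 in F1 (1.21). In DBA 10 rose with 1, Il15, lower (0.67), and 11 rose in each strain at day 18 (1.24 in both). Of all genes, 18.3%, 18.6% and 16.4% were called higher in BALB/c, F1 and DBA at day 3, and 21.7% and 22.4% at day 18. The DBA count fell to 4 without DBA day 3 replicate 1 or replicate 2, to 5 without DBA control replicate 4 and to 6 without DBA control replicate 6, and was 5 with controls pooled over runs and 6 with median centring. Irf1, a direct interferon-gamma target that also answers type I interferon, rose by 1.36 ± 0.13 in F1, 0.78 ± 0.13 in BALB/c and 0.44 ± 0.13 in DBA, and its F1 response exceeded that of DBA by 0.92 ± 0.19 (adjusted p = 0.00479 by limma). Irf8 rose by 1.91, 2.35 and 1.56 and the cytokine brake Socs1 by 0.97, 1.77 and 1.07. The Irf1 call in DBA was lost without DBA control replicate 4 (0.28, adjusted p = 0.131) or DBA day 3 replicate 2 (0.39, adjusted p = 0.0558). The Socs1 call was lost in BALB/c without BALB/c control replicate 5 or 7 or BALB/c day 3 replicate 1 or 3 (lowest 0.68, adjusted p = 0.164), and in DBA without DBA control replicate 4 (0.73, adjusted p = 0.142) or DBA day 3 replicate 1. Il18r1, a receptor chain that arms lymphocytes for interferon-gamma, rose by 2.11 and 1.90 in BALB/c and F1, with 0.67 in DBA not passing. In the F1 minus DBA difference, where 2.02% of all genes were called, 2 of 15 were higher, Irf1 and Il15.

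NF-kB cytokine and feedback genes rose in all strains, also in DBA at day 3, where Cxcl9 fell. At day 3, 13 of 14 rose in BALB/c (median 1.83), 13 in F1 (1.70) and all 14 in DBA (1.67). At day 18, 13 rose in BALB/c (2.40) and 14 in DBA (2.38). Of all genes, 18.3%, 18.6% and 16.4% were called higher in BALB/c, F1 and DBA at day 3, and 21.7% and 22.4% at day 18. Tnf rose by 2.43 ± 0.45 in F1, 2.36 ± 0.45 in DBA and 1.91 ± 0.45 in BALB/c, and its F1 and DBA responses differed by 0.07 ± 0.64. The neutrophil chemokine genes Cxcl2 and Cxcl1 rose by 6.05 and 1.85 in DBA at day 3, against 4.81 and 0.89 in F1, where the Cxcl1 call was lost without F1 control replicate 1 or 2 or F1 day 3 replicate 1 or 2 (lowest 0.65, adjusted p = 0.135). Il1b rose by 4.48, 4.06 and 3.78 and Ccl2, the monocyte chemokine, by 4.90, 4.03 and 2.46 in BALB/c, F1 and DBA. In the F1 minus DBA difference 0 of 14 were called by limma, with 2 lower and 0 higher at an unadjusted p under 0.05.

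**Figure D5:**
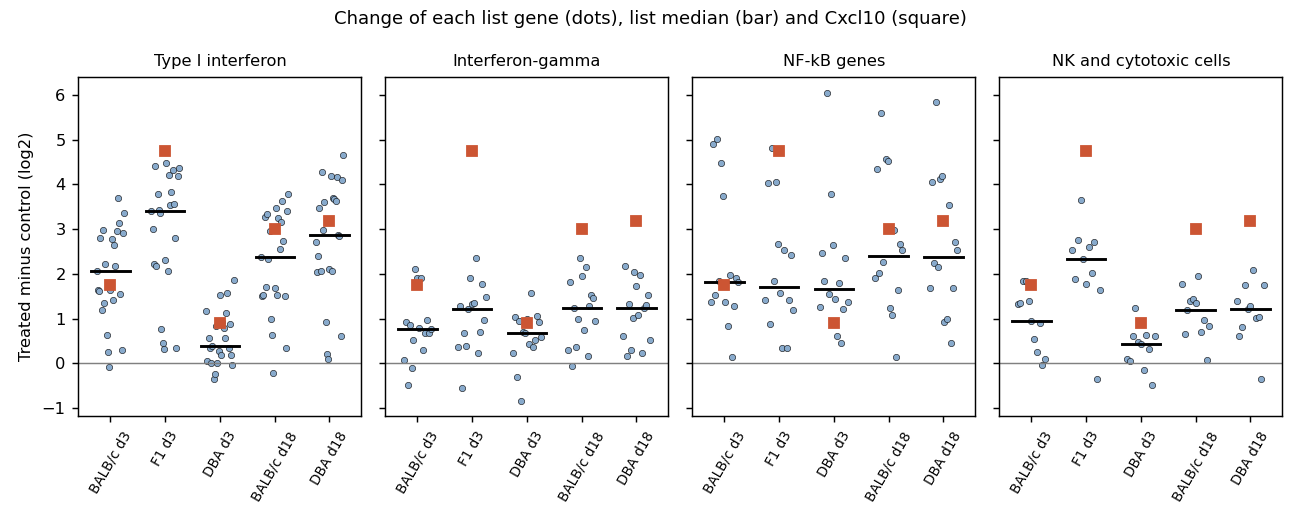
Log2 change of every tested gene of 4 lists (dots), the median of the list (bar) and Cxcl10 (red square) in each of the 5 responses. The type I interferon median falls to 0.38 in DBA at day 3 while the NF-kB median stays at 1.67, and Cxcl10 in F1 at 4.74 lies above every gene of the interferon lists.

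The cells that carry CXCR3 were read through their markers. NK and cytotoxic cell markers rose in 7 of 11 at day 3 in BALB/c (median 0.95), 10 in F1 (2.34) and 2 in DBA (0.43), and in 10 and 8 at day 18 (1.19 and 1.23). Over all genes 18.3%, 18.6% and 16.4% were called higher in these day 3 responses, and 21.7% and 22.4% at day 18. The DBA day 3 count lies near that share. Ncr1, the NK cell receptor NKp46, rose by 2.01 ± 0.23 in F1 and 0.63 ± 0.23 in DBA, with 0.25 ± 0.23 in BALB/c not passing (adjusted p = 0.427 by limma). The DBA call of Ncr1 was lost without DBA control replicate 4 or 6 or DBA day 3 replicate 2 or 3 (lowest 0.49, adjusted p = 0.168). The cytotoxic granule genes Gzmb and Gzma rose by 3.66 and 2.77 in F1. Nkg7 rose by 2.72, the receptor gene Klrd1 by 1.77 and Ccl5, a chemokine of cytotoxic lymphocytes, by 2.53 in F1, while in DBA at day 3 Ccl5 changed by 0.10 ± 0.29. In the F1 minus DBA difference, where 2.02% of all genes were called, 9 of 11 were higher (median 1.85), and 6 without DBA control replicate 5. Its calls of Gzma, Gzmb and Ncr1 were each lost when certain single arrays were left out. Their lowest values were 1.90 (adjusted p = 0.145 by limma), 2.07 (adjusted p = 0.146) and 1.24 (adjusted p = 0.0624). In F1 minus BALB/c, where 0.223% of all genes were called, 1 was called by limma, Ncr1 (1.76 ± 0.32, adjusted p = 0.0126). At an unadjusted p under 0.05, 8 of 11 were higher there. The DBA day 3 count went to 0 without DBA control replicate 4, DBA day 3 replicate 2 or DBA day 3 replicate 3 and to 1 without DBA control replicate 6 or DBA day 3 replicate 1, and was 0 with median centring. The F1 minus BALB/c count ran from 0 to 3 with 1 array left out and was 7 with array weights.

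T cell markers were counted in the same way, and the same shares of all genes apply. At day 3 5 of 15 rose in BALB/c (median 0.61), and 3 without BALB/c day 3 replicate 3. There were 7 in F1 (0.69) and 1, Cd3d, in DBA (0.02). At day 18 there were 10 in BALB/c (1.15) and 9 in DBA (0.71), with Cd8a lower. In the day 3 F1 minus DBA difference limma called 1 of 15, Cd8b1, against 2.02% of all genes. That call was lost without any 1 of 6 arrays. In F1 minus BALB/c and in BALB/c minus DBA at day 3, 0 of 15 were called. Cd3e, a chain of the T cell receptor complex, rose by 0.94 ± 0.28 in F1 and by 1.24 ± 0.24 and 1.42 ± 0.28 at day 18, Cd3d by 1.71 in F1 and Cd8b1, the CD8 beta chain, by 1.90. Without F1 day 3 replicate 2 the Cd3e change in F1 was 0.67 (adjusted p = 0.0871), and the DBA call of Cd3d was lost without any 1 of 8 arrays, most with DBA control replicate 4 left out (0.45, adjusted p = 0.388). The Cd8a fall of 0.69 in DBA at day 18 turned to a rise of 0.38 (adjusted p = 0.147) on the mean of its probe sets, so its direction is not settled. Cxcr3 rose in DBA at day 3. There the summed signal of the T cell list was 2092.5 to 2469.7 on controls and 2338.1 to 2423.8 on treated arrays. For the NK and cytotoxic list it was 1030.9 to 1525.2 on controls and 1441.8 to 1866.4 on treated arrays. For the monocyte and macrophage list it was 22836.8 to 24434 and 55239.2 to 80613.1. Monocyte and macrophage markers rose in 9, 9 and 10 of 10 in BALB/c, F1 and DBA at day 3 (medians 2.13, 2.19 and 2.01) and in all 10 at day 18. Fcgr1 led in F1 at 4.99, and Ms4a7 and Mpeg1 rose there by 3.03 and 3.08. Plasmacytoid dendritic cell markers rose in 4, 5 and 3 of 7 at day 3 (medians 0.99, 1.19 and 0.60), with Spib at 1.85, 2.56 and 1.69 and Ccr9 at 1.36, 2.43 and 1.11, and in 2 and 5 at day 18 (0.58 and 0.93). At day 3 their count was 2 in BALB/c without BALB/c day 3 replicate 3, 3 in F1 without F1 control replicate 2, and 1 in DBA without DBA control replicate 4 or 6 or DBA day 3 replicate 1 or 2, each of which also ended the DBA call of Ccr9 (lowest 0.86, adjusted p = 0.15). At day 18 it was 4 in BALB/c without BALB/c control replicate 1, and in DBA 2 without DBA day 18 replicate 2 and 3 without DBA control replicate 2 or 3 or DBA day 18 replicate 3. Limma called 0 of 7 plasmacytoid dendritic cell markers in each of the day 3 differences F1 minus DBA, F1 minus BALB/c and BALB/c minus DBA. Whether cells of any of these lists supplied the member RNA was not tested.

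Among chemokine and egress receptors of T and NK cells, a list that holds Cxcr3, 5 of 9 rose in BALB/c at day 3 with 1 (Cxcr5) lower (median 0.65), 6 in F1 with S1pr1 lower (1.41), and 5 in DBA (0.77). The BALB/c count was 3 without BALB/c control replicate 6, BALB/c day 3 replicate 1 or BALB/c day 3 replicate 3 and with median centring, and the DBA count was 3 with controls pooled over runs. At day 18, 7 rose in each strain (1.28 in BALB/c and 0.88 in DBA). Of all genes, 18.3%, 18.6% and 16.4% were called higher in BALB/c, F1 and DBA at day 3, and 21.7% and 22.4% at day 18. Ccr2, the receptor of inflammatory monocytes, rose by 2.20, 2.08 and 1.94 at day 3, and Cxcr4, the receptor for CXCL12, by 1.31, 1.56 and 1.14. Cxcr6, found on effector T and NK cells, rose by 0.83 ± 0.22 in F1 and by 0.83 ± 0.19 and 0.74 ± 0.22 at day 18, with 0.01 and 0.14 in BALB/c and DBA at day 3. Cx3cr1 rose by 2.64 in DBA and 1.69 in F1, with 0.65 in BALB/c not passing, and -0.21 there with controls pooled over runs. Limma called 0 of 9 receptors in each of the day 3 differences F1 minus BALB/c, F1 minus DBA and BALB/c minus DBA. With 1 array left out the F1 minus DBA count ran from 0 to 1.

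The genes whose log2 level was most like that of each member over the 32 arrays were these. The arrays share treatment groups and code runs, and genes were picked from 13016, so these correlations are descriptions. For Cxcl10 they were Ifi209, Mx1, Ms4a4c, Fcgr4 and Trim30d, all at Pearson r = 0.96 (Spearman rho 0.76 to 0.90, and 0.46 to 0.76 for deviations from group means). For Cxcr3 they were P2rx4 and Dok1 at r = 0.96 and Slc37a2, Otulinl and Slc11a1 at 0.95. For Cxcl9 they were Idnk (0.74), Cxcl11 (0.73), Tnfsf10 (0.72), Calhm6 (0.70) and Col11a2 (0.70). In deviations from group means Cxcl11 kept r = 0.72 with Cxcl9, and the other named Cxcl9 genes had 0.32 to 0.47. The named Cxcr3 genes had 0.22 to 0.55 in such deviations. Between members these deviations correlated at 0.54 for Cxcl9 with Cxcl10, 0.325 for Cxcl9 with Cxcr3 and -0.10 for Cxcl10 with Cxcr3.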

How the data were processed

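RNA of mouse mesentery was measured on 32 single-channel arrays. The authors deposited linear intensity values, 1 per probe set. GCOS and MAS5 appear in the submitters' processing notes; their versions are not given in the sources used here. Each array has a 2% trimmed mean of 500. Scanner files were not used here.

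Groups came from strain and treatment labels. Replicates were numbered by accession, which names arrays and pairs none. Title codes form 3 runs of unstated meaning. A code with the letters "mix" does not say whether RNA was pooled.

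Probe sets other than array controls with a signal above 103.7 on at least 3 arrays were kept (27039). Each gene was represented by the brightest kept probe set with its symbol as the only 1 in the platform annotation. 1 model of log2(signal + 24.9) with a level for each strain, treatment and run was fitted to all arrays with limma 3.58.1 in R 4.3.3 (intensity trend). The procedure was tested on simulated data.

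The members and the gene lists (170 symbols, 154 matched) were chosen with earlier results of these data known. Named genes were the members, a fixed set of related genes, up to 3 members per list with the largest F1 change, and the 5 genes most like each member; neutrophil, adipocyte, mesothelial, pancreatic acinar and B cell lists were only counted. Il15, Cxcr5, S1pr1 and Lipe were named after their values were seen. Alternatives changed 1 choice at a time.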

Additional observations from a re-analysis of the deposited data

Results flagged for a closer look

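6 differences between responses passed the test among the 3 genes. For Cxcl9 the day 3 response of F1 exceeded that of DBA by 4.13 and the mean of both parents by 3.51 on the log2 scale. For Cxcl10 it exceeded that of BALB/c by 2.98, that of DBA by 3.84 and the parental mean by 3.41. The Cxcl10 response of DBA was larger at day 18 than at day 3 by 2.29. The F1 differences hold F1 controls of another Xist class than the treated F1 arrays, and the DBA difference spans 2 code runs. Outlying arrays were sought for the 4 probe sets among all BALB/c controls, all DBA controls and BALB/c of day 18 (4 to 7 arrays). The BALB/c controls of the day 18 run were also taken alone. None stood apart in these 16 checks. Groups of 3, which include every F1 group and every treated group of day 3, were not examined.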

How the results depend on the processing

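No paired analysis was possible because the numbers given to replicates come from the order of accessions and pair no arrays. All 5 differences in Cxcl10 relative to Cxcl9 kept their direction, none past 0.05 after adjustment. The second Cxcl9 probe set was too dim on nearly all arrays for its values below to be read as a direction. MAS5 signals near background, as on controls for Cxcl10 and Cxcr3, limit the precision of folds, and Cxcr3 has no value under a strict filter. The cause of each change below was not tested.

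Cxcl10 DBA day 3 (1.04), Cxcl9 DBA day 18 minus day 3 (2.26), Cxcl9 F1 minus BALB/c day 3 (2.79), Cxcr3 DBA day 18 minus day 3 (0.61), Cxcr3 F1 minus BALB/c day 3 (0.89), Cxcr3 F1 minus DBA day 3 (1.00) and Cxcr3 F1 response minus mid-parent day 3 (0.94) were newly called with array weights. Dpp4 BALB/c day 18 (-0.17) and Pf4 F1 day 3 (0.21) were turned in sign with array weights. A floor in place of the offset gave 1.15 for Cxcl10 DBA day 3, newly called. A floor in place of the offset gave 0.70 for Cxcr3 treated F1 minus treated BALB/c, no longer called. Cd8a BALB/c day 18 (0.58), Cd8a DBA day 18 (1.07), Cd8a F1 day 3 (0.64) and Cd8b1 DBA day 3 (0) were turned in sign with a floor in place of the offset. The mean over probe sets gave 0.81 for Cxcr3 F1 response minus mid-parent day 3, newly called. Cd8a BALB/c day 18 (0.42), Cd8a BALB/c day 3 (0.13), Cd8a DBA day 18 (0.38), Cd8a F1 day 3 (0.50), Dpp4 BALB/c day 18 (-0.054) and Dpp4 F1 day 3 (-0.29) were turned in sign with the mean over probe sets. Cxcl9 DBA day 18 minus day 3 (2.37), Cxcr3 F1 minus DBA day 3 (0.91) and Cxcr3 F1 response minus mid-parent day 3 (0.83) were newly called with median centring. Median centring gave 0.60 for Cxcr3 treated F1 minus treated BALB/c, no longer called. Ackr1 BALB/c day 18 (-0.022), Cxcr6 BALB/c day 3 (-0.057), Dpp4 BALB/c day 18 (-0.035) and Dpp4 F1 day 3 (-0.013) were turned in sign with median centring. Cxcl9 DBA day 18 minus day 3 (1.80), Cxcl9 F1 minus BALB/c day 3 (3.23), Cxcr3 BALB/c day 18 minus day 3 (1.02), Cxcr3 DBA day 18 minus day 3 (1.22), Cxcr3 F1 minus DBA day 3 (1.18) and Cxcr3 F1 response minus mid-parent day 3 (1.11) were newly called with controls pooled over code runs. Cxcr3 DBA day 3 (0.46) and Cxcr3 treated F1 minus treated BALB/c (0.64) were no longer called with controls pooled over code runs. Cxcl10 untreated DBA minus untreated BALB/c (0.035), Cxcl10 untreated F1 minus untreated DBA (-0.12), Cxcl9 BALB/c minus DBA day 18 (0.032), Cxcl9 untreated F1 minus untreated BALB/c (-0.050), Cxcr3 BALB/c minus DBA day 18 (-0.037), Ackr3 BALB/c day 3 (0.36), Cd3g BALB/c day 3 (-0.049), Cx3cr1 BALB/c day 3 (-0.21), Cxcr6 BALB/c day 3 (-0.57), Cxcr6 DBA day 3 (-0.26), Dpp4 BALB/c day 18 (-0.075), Ncr1 BALB/c day 3 (-0.13) and Pf4 DBA day 18 (0.014) were turned in sign with controls pooled over code runs. No filter on dim probe sets gave 0.64 for Cxcr3 treated F1 minus treated BALB/c, no longer called. Cxcr3 F1 minus DBA day 3 (0.87) and Cxcr3 F1 response minus mid-parent day 3 (0.81) were newly called with no variance trend. Cxcl9 F1 minus BALB/c day 3 (2.32), Cxcr3 F1 minus DBA day 3 (0.66) and Cxcr3 F1 response minus mid-parent day 3 (0.62) were newly called with the offset at the median. Cd8a BALB/c day 18 (0.26), Cd8a DBA day 18 (0.46) and Cd8a F1 day 3 (0.33) were turned in sign with the offset at the median. An offset of 1 gave 1.14 for Cxcl10 DBA day 3, newly called. An offset of 1 gave 0.70 for Cxcr3 treated F1 minus treated BALB/c, no longer called. Cxcl10 DBA day 3 (0.90), Cxcl9 DBA day 18 minus day 3 (2.32) and Cxcl9 untreated DBA minus untreated BALB/c (1.00) were newly called with only the compared arrays. Only the compared arrays gave 0.64 for Cxcr3 treated F1 minus treated BALB/c, no longer called. Cxcl9 F1 minus BALB/c day 3 (2.69), Cxcr3 F1 minus DBA day 3 (0.79) and Cxcr3 F1 response minus mid-parent day 3 (0.72) were newly called with parental controls for F1. Parental controls for F1 gave 0.43 for Pf4 F1 day 3, turned in sign. Cxcl9 DBA day 18 minus day 3 (2.37) and Cxcr3 F1 response minus mid-parent day 3 (0.83) were newly called with quantile normalization. Quantile normalization gave 0.61 for Cxcr3 treated F1 minus treated BALB/c, no longer called. Cxcr3 BALB/c minus DBA day 18 (-0.017), Ackr1 BALB/c day 18 (-0.011), Cxcr6 BALB/c day 3 (-0.018) and Dpp4 BALB/c day 18 (-0.011) were turned in sign with quantile normalization. The second Cxcl9 probe set (added after seeing the data) gave 0.94 for Cxcl9 untreated DBA minus untreated BALB/c, newly called. Cxcl9 DBA day 3 (-0.058), Cxcl9 F1 minus DBA day 3 (1.42) and Cxcl9 F1 response minus mid-parent day 3 (1.15) were no longer called with the second Cxcl9 probe set (added after seeing the data). Cxcl9 BALB/c day 18 (-0.090), Cxcl9 BALB/c day 18 minus day 3 (-0.58), Cxcl9 BALB/c day 3 (0.49), Cxcl9 DBA day 18 (-0.073) and Cxcl9 DBA day 18 minus day 3 (-0.015) were turned in sign with the second Cxcl9 probe set (added after seeing the data). A strict filter gave 2.32 for Cxcl9 DBA day 18 minus day 3, newly called. A term for Xist class gave 2.76 for Cxcl10 F1 minus BALB/c day 3, no longer called. A term for Xist class gave 0.18 for Pf4 F1 day 3, turned in sign. Counts of genes called moved to 3423 with only the compared arrays for BALB/c day 18 and to 5872 with array weights for DBA day 3. With probe sets taken singly the counts are of probe sets among 27039, not of genes among 13016, and cannot be set against the gene counts. They were 7972 for BALB/c day 3, 8164 for F1 day 3, 6368 for DBA day 3, 10261 for BALB/c day 18 and 10663 for DBA day 18.

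With 1 array left out, some calls of genes other than the 3 members were lost, and not all are listed. Examples are Cd3d in BALB/c at day 3 (lowest 0.74, adjusted p = 0.189 by limma) and Nkg7 there (0.73, adjusted p = 0.101). Others are Gzmb in DBA at day 3 (0.97, adjusted p = 0.173) and Ly6d in DBA at day 18 (0.66, adjusted p = 0.151). The values of member results that changed call or sign, and of other genes that changed sign, ran as follows. Cxcl10 BALB/c minus DBA day 18 ran from -0.45 to 0.026. Cxcl10 BALB/c day 18 minus day 3 ran from 0.86 to 1.95. Cxcl10 DBA day 18 minus day 3 ran from 2.04 to 2.61. Cxcl10 DBA day 3 ran from 0.58 to 1.15. Cxcl10 F1 minus BALB/c day 3 ran from 2.60 to 3.69. Cxcl10 untreated DBA minus untreated BALB/c ran from -0.56 to 5e-04. Cxcl10 untreated F1 minus untreated DBA ran from -0.23 to 0.34. Cxcl9 BALB/c day 18 ran from -0.020 to 0.28. Cxcl9 DBA day 18 minus day 3 ran from 2.05 to 2.71. Cxcl9 DBA day 3 ran from -2.07 to -1.43. Cxcl9 F1 minus BALB/c day 3 ran from 2.41 to 3.55. Cxcl9 untreated F1 minus untreated BALB/c ran from -0.037 to 0.52. Cxcr3 BALB/c minus DBA day 18 ran from -0.023 to 0.15. Cxcr3 BALB/c minus DBA day 3 ran from -0.024 to 0.28. Cxcr3 F1 minus DBA day 3 ran from 0.76 to 1.06. Cxcr3 F1 response minus mid-parent day 3 ran from 0.70 to 1.00. Cxcr3 treated F1 minus treated BALB/c ran from 0.53 to 0.83. Cxcr3 untreated DBA minus untreated BALB/c ran from -0.20 to 0.10. Cxcr3 untreated F1 minus untreated DBA ran from -0.21 to 0.037. Ackr1 BALB/c day 18 ran from -0.023 to 0.087. Ackr1 DBA day 18 ran from -0.082 to 0.037. Ccl5 DBA day 3 ran from -0.094 to 0.28. Cd3g DBA day 3 ran from -0.095 to 0.55. Cd8a BALB/c day 3 ran from -0.49 to 0.0024. Cxcr6 BALB/c day 3 ran from -0.13 to 0.084. Cxcr6 DBA day 3 ran from -0.096 to 0.31. Dpp4 BALB/c day 18 ran from -0.24 to 0.15. Dpp4 F1 day 3 ran from -0.086 to 0.15. Nkg7 DBA day 3 ran from -0.0035 to 0.57. Pf4 DBA day 18 ran from -0.30 to 0.037. Pf4 F1 day 3 ran from -0.29 to 0.26.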

Other observations

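Markers of other cells of the mesentery were counted beside the chemokines. Neutrophil markers rose in 7, 6 and 4 of 9 in BALB/c, F1 and DBA at day 3 (medians 2.76, 2.03 and 2.14) and in all 9 in both strains at day 18 (3.37 and 3.16). Adipocyte markers fell in 4 of 6 in BALB/c and 3 of 6 in F1 at day 3 (medians -1.36 and -0.88), and in 6 and 5 of 6 in BALB/c and DBA at day 18 (-1.31 and -1.96). In DBA at day 3 limma called 0 of 6 (median -0.52), with 1 lower at an unadjusted p under 0.05, Lipe, named after its value was seen. Mesothelial markers moved both ways, with 1 higher and 2 lower of 6 in BALB/c, 3 and 1 in F1, and 2 and 0 in DBA at day 3, and 2 higher and 1 lower in each strain at day 18. Of 5 B cell markers, 1 fell in BALB/c at day 3, 1 rose in F1 and 3 rose in BALB/c at day 18. Over all genes 18.3%, 18.6% and 16.4% were called higher in BALB/c, F1 and DBA at day 3. At day 18 the shares were 21.7% in BALB/c and 22.4% in DBA. A count of 1 higher among 5 or 6 markers lies near these shares. For markers that fell, the shares of genes called in either direction were 35.5%, 36.5% and 29.8% at day 3 and 43.9% and 47.4% at day 18. In DBA at day 3, 13.4% were called lower. Pancreatic acinar markers had a mean log2 level of 6.88 to 14.11 on treated BALB/c arrays of day 18 and of 7.08 to 16.85 on their controls, highest on control replicate 2, the array that stood apart. On arrays of the day 3 run it was 5.47 to 9.19. Limma called 0 of these 7 in each of the 5 responses, with 1 higher at an unadjusted p under 0.05 in BALB/c at day 3 and 0 in the others.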
